A study of Mus musculus with 8 samples.

Results

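The open chromatin of a paclitaxel-resistant derivative of the mouse breast cancer line PB3, PB3-PAC-R, was compared with that of the untreated parental line, PB3-Parental. The comparison used 4 of the 8 libraries of the series, 2 for each of these lines, and covered all 57417 consensus regions, the places where at least 1 line of the series had a peak. Of these regions, 48270 lay inside a protein-coding gene or at most 50 kb from the nearest one, and their counts were summed into 14899 gene loci. A locus value sums open chromatin around a gene and does not measure its transcription. The regions were 73 to 2316 bp wide, with a median of 473 bp.

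The labels give PB3 as Er-/Pr-/Her2-. Resistant cells came from PB3 exposed to 300, 500 and 800 nM paclitaxel, and the labels speak of resistant clones, so PB3-PAC-R may stand for few founder cells. Derivatives resistant to vinorelbine (PB3-VIN-R) and to eribulin (PB3-ERI-R, spelled erubilin in most labels), raised with the same doses of those drugs, gave 2 libraries each and are used here to ask whether a change was particular to PB3-PAC-R. All lines share the PB3 background. No label says whether drug was present when nuclei were taken, or that replicates were separate cultures, so the p-values here reflect how far these libraries varied, and that variation may be technical.

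ATAC-seq uses the Tn5 transposase, which cuts and tags DNA where nucleosomes and other proteins leave it exposed, so read counts follow the openness of promoters and enhancers. Paclitaxel binds beta tubulin inside the microtubule and stabilizes the polymer, which blocks mitosis, whereas vinorelbine and eribulin prevent microtubule growth. Known routes to taxane resistance include drug efflux by P-glycoprotein, encoded in the mouse by Abcb1a and Abcb1b, a change in tubulin isotypes or microtubule-associated proteins, altered drug uptake and metabolism, and a shift between epithelial and mesenchymal states.

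Libraries held 15029435 and 13774822 counts in PB3-PAC-R, against 15644934 and 14173295 in PB3-Parental. PB3-VIN-R was deeper, at 24052237 and 23206697 counts, and PB3-ERI-R shallower, at 13419873 and 10521964. Replicates differed by more than counting error, with a chi-square per degree of freedom of 5.39 in PB3-PAC-R and of 6.95 in PB3-Parental. Over 44657 regions, log2 CPM (counts scaled to library size) correlated at 0.96 between the PB3-PAC-R replicates and at 0.93 to 0.97 between PB3-PAC-R and PB3-Parental libraries. These correlations are across regions, which are not independent replicates. The luminal and basal mammary lists showed no call. The summed accessibility of the luminal markers was 719 and 847 CPM in PB3-PAC-R against 753 and 860 in PB3-Parental.

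Changes were called where edgeR's quasi-likelihood test, fitted to the counts of all 8 libraries, gave an adjusted p (Benjamini-Hochberg) under 0.05. At that threshold 49 of 57415 regions tested differed between PB3-PAC-R and PB3-Parental, 0.0853% of them. Of these, 18 were more accessible in PB3-PAC-R (0.0314%) and 31 less accessible (0.054%). Among gene loci 17 of 14899 were called (0.114%), 4 higher (0.0268%) and 13 lower (0.0873%). At an unadjusted p under 0.05 there were 3316 regions (5.78%) and 848 loci (5.69%). The median log2 fold change was -0.01 over regions and -0.02 over loci. All 49 regions and all 17 loci had the same sign in all 4 pairings of a PB3-PAC-R with a PB3-Parental library. Picking features by the test favours such a split, so it adds no support to the calls. The share of all features split this way was not counted. The smallest called region change was 1.31 in size on the log2 scale. The number called moved with the fit. Libraries of the same replicate number deviated together in all 6 pairs of lines, and with that number as a block 636 regions (1.11%) were called, 274 gained and 362 lost, and 160 loci (1.07%), 48 higher and 112 lower. These included all 49 regions and all 17 loci. Values below are without the block, and a blocked p stands beside a named list gene where it changes the call. Without the PB3-ERI-R libraries 2 regions and 8 loci were called, and with the 4 libraries of the comparison alone 2 regions and 2 loci. With PB3-PAC-R replicate 1 or replicate 2 left out, all 49 regions and all 17 loci kept their sign, but fewer of them were called. Without PB3-Parental replicate 1 there were 172 regions, 39 of them among the 49, and 16 loci, 8 of them among the 17. Without PB3-Parental replicate 2 there were 16 regions and 5 loci.

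**Figure D1:**
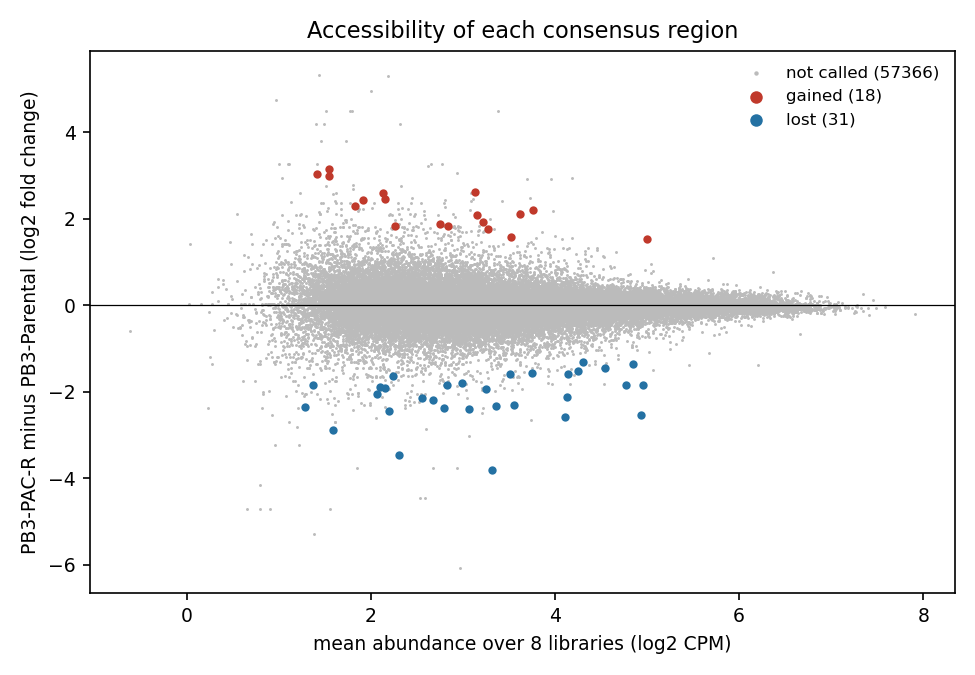
Log2 fold change of each consensus region (PB3-PAC-R minus PB3-Parental) against its mean abundance over 8 libraries in log2 CPM; grey points are the 57366 regions not called, red points the 18 gained and blue points the 31 lost. Called regions lie at least 1.31 log2 units from 0, beyond the band in which most regions fall.

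The lost regions included promoters and the assessable gained ones did not, a difference that was not tested. Of the 31 lost regions, 12 overlapped a RefSeq promoter window, taken as 250 bases before to 50 bases after a gene's start on GRCm38.p6. None of the 15 gained regions that could be assessed did; the other 3 lie on a chromosome for which no window was used. Over all 9679 regions at promoter windows, 0.124% were called, and over the 45870 regions elsewhere on the same chromosomes 0.0741%. The lost promoter regions of Shroom3, Tlx3, Atf7ip2 and Med12l carried no PB3-Parental peak, so they were not called open in that line. The 250 bases before the start are shown for 6 of the 12 lost promoters, written 5′ to 3′ on the gene's strand with each CG dinucleotide in capitals. They were chosen to show the spread in CG content, from dense at Cnr1 to sparse at Tbc1d9, at promoters whose values follow. The windows are chr1:184883037-184883286 on the minus strand for C130074G19Rik, chr5:92809132-92809381 on the plus strand for Shroom3, chr11:33203589-33203838 on the minus strand for Tlx3, chr11:33513754-33514003 on the minus strand for Ranbp17, chr4:33924394-33924643 on the plus strand for Cnr1 and chr8:83165102-83165351 on the plus strand for Tbc1d9.
C130074G19Rik: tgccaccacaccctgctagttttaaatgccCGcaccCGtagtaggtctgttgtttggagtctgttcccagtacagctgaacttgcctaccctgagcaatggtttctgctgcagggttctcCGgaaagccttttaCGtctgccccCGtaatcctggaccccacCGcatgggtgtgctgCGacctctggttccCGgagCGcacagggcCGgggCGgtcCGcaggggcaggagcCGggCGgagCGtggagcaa
Shroom3: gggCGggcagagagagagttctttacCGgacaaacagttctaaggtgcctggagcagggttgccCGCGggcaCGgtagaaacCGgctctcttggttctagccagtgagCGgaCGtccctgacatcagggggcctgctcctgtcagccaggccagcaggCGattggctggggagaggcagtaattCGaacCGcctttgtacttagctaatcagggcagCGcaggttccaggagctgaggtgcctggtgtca
Tlx3: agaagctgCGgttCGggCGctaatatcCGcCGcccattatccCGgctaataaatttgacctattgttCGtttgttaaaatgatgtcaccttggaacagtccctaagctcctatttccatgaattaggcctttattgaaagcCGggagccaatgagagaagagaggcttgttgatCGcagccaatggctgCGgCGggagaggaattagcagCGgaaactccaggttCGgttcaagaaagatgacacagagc
Ranbp17: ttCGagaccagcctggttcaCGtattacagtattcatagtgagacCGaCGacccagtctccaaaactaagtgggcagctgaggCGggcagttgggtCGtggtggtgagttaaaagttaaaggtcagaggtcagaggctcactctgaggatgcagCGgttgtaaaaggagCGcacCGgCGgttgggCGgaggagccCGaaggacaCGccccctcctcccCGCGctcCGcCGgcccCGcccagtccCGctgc
Cnr1: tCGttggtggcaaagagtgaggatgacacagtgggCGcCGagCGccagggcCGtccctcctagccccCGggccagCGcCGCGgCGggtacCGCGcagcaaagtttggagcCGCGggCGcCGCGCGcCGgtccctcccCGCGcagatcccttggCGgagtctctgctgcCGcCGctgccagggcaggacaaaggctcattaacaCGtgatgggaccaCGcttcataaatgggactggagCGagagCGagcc
Tbc1d9: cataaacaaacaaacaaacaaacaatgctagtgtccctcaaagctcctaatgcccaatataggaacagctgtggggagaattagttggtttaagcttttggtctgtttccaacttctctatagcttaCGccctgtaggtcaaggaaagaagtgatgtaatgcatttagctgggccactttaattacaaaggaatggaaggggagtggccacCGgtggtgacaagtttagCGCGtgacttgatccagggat

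Unmethylated CG-rich stretches are a common form of mammalian promoter, and CG is otherwise rare in the genome. The 12 lost promoters held 4 to 28 CG dinucleotides each, with a median of 15, against a median of 16 over all 9679 promoter regions. The ratio of observed to expected CG was at least 0.6 in 10 of the 12 (83.3%) and in 70.3% of all. The pentamer CCAAT, read on both strands, occurred in 8 of the 12 (66.7%) and in 36.5% of all promoter windows of the same length. GGGCGG occurred in 66.7% against 61.3%, TGANTCA in 8.3% against 5.4%, CACGTG in 16.7% against 8.5%, and TATAAA in none of the 12 against 6.1%. These shares describe letters in the window and say nothing of a bound factor.

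The deepest called loss was at C130074G19Rik, a gene with 1 region, over its promoter (chr1:184882742-184883236). The 2 PB3-PAC-R libraries held 16 and 15 counts there and the 2 PB3-Parental libraries 228 and 221. The groups were far apart, at 1.18 and 1.18 CPM of the locus against 16.3 and 17.1. The locus fell by 3.82 ± 0.30 on the log2 scale (SE; edgeR adjusted p = 0.001846), a 14.1-fold loss. PB3-VIN-R lay between, at 5.06 and 3.54 CPM.

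Pax6, a paired-box regulator of eye, brain and pancreas development, lost its single region inside the gene (chr2:105675235-105675688). Its locus stood at 1.47 and 1.34 CPM in PB3-PAC-R and 14.4 and 17.1 in PB3-Parental, without overlap, a fall by 3.47 ± 0.34 on the log2 scale (edgeR adjusted p = 0.004874). Tlx3, a homeobox factor of neuronal specification, fell by 2.13 ± 0.32 (edgeR adjusted p = 0.0421), with 2.21 and 1.26 CPM in PB3-PAC-R against 6.45 and 8.92. Regions nearest to Bcl11b, a zinc finger factor, and Tle4, a Groucho-type corepressor, fell by 2.31 and by 1.92 and 1.85, but lay 102 kb and 199 to 201 kb from those genes. The first Tle4 region had an edgeR adjusted p of 0.0501, no longer past the threshold, with the shifts of whole chromosome windows described below taken out as offsets. Of the 14 neural marker loci tested, only Pax6 was called, and the list's median was -0.02.

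Ranbp17, which encodes a Ran-binding protein of the nuclear transport receptor family, is the neighbour of Tlx3, and its promoter was lost as well. The lost regions of the pair lay 309 kb apart on chromosome 11. The Ranbp17 locus stood at 11.5 and 9.14 CPM in PB3-PAC-R against 36.1 and 35.3 in PB3-Parental and fell by 1.79 ± 0.16 on the log2 scale (edgeR adjusted p = 0.002786). Of its 3 regions only the promoter region was called, with 149 and 107 counts against 491 and 442. Between these lay 2 further regions, with changes of 0.96 and -0.95 on at most 13 counts in any PB3-Parental or PB3-PAC-R library, and neither was called. This stretch was chosen after its values were seen.

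Of the other lower loci, 3 belong to receptors or a synaptic protein. Cnr1, the cannabinoid receptor of the brain, lost accessibility over its CG-dense promoter, from 33.4 and 33.3 CPM in PB3-Parental to 10.2 and 12.2 in PB3-PAC-R. The fall was 1.57 ± 0.21 on the log2 scale (edgeR adjusted p = 0.0260). Unc13b, a synaptic vesicle priming factor, went from 25.1 and 30.9 to 10.4 and 12.1 CPM, a fall by 1.32 ± 0.19 (edgeR adjusted p = 0.0312). Il3ra, the alpha chain of the interleukin-3 receptor, went from 23.7 and 25.9 to 11.6 and 10.7 CPM and fell by 1.15 ± 0.16 (edgeR adjusted p = 0.0312). In each of these both PB3-PAC-R libraries lay below both PB3-Parental libraries, as at every lower locus called.

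Cd55, the decay-accelerating factor that limits complement on the cell surface, fell by 1.24 ± 0.13 on the log2 scale (edgeR adjusted p = 0.0104). Its 3 regions, at the promoter and 9.2 and 20.9 kb outside the gene, had changes of -0.99, -1.57 and -1.55, none called singly. Its CPM was 16.8 and 16.5 in PB3-PAC-R and 39.3 and 39.0 in PB3-Parental. Atp8a1, an aminophospholipid flippase, stood at 18.1 and 17.8 CPM against 37.1 and 34.9 and fell by 1.00 ± 0.15 (edgeR adjusted p = 0.0445). Tnik, a kinase of Wnt and Jnk signalling, fell by 0.92 ± 0.12 (edgeR adjusted p = 0.0260) from 119 and 113 to 66.0 and 56.3 CPM, and all 9 of its regions were below 0, from -0.43 to -1.45. Cln8, an endoplasmic reticulum protein, fell by 0.80 ± 0.11 (edgeR adjusted p = 0.0260), with 35.3 and 32.6 CPM against 59.5 and 58.4. At Cd55, Tnik and Cln8 the call thus rested on several regions, none of which passed alone.

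Tbc1d9, which carries the TBC domain of Rab GTPase-activating proteins, lost its promoter region (180 and 108 counts against 492 and 550) and a region 11.3 kb further on (46 and 48 against 227 and 204). Its other 2 regions had changes of -0.23 and -0.53 and were not called. The locus fell by 1.14 ± 0.16 on the log2 scale (edgeR adjusted p = 0.0312). Ccdc30, a coiled-coil protein gene, lost its promoter region, from 9.02 and 8.76 to 1.84 and 1.58 CPM of the locus, a fall by 2.37 ± 0.33 (edgeR adjusted p = 0.0312).

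Further lost regions belonged to loci that were not called as a whole or that had other regions beside them. Over the promoter of Shroom3, an actin-binding protein of apical constriction (chr5:92808997-92809633), PB3-PAC-R held 11 and 13 counts and PB3-Parental 79 and 71, a fall by 2.59 ± 0.34 on the log2 scale. Grm8, a metabotropic glutamate receptor, lost a region inside the gene (27 and 29 counts against 140 and 175). Atf7ip2, which encodes an Atf7-interacting protein, lost its promoter (13 and 12 against 51 and 77), and Rbms3, an RNA-binding protein, an internal region (6 and 6 against 27 and 39). A region in Gm52229, a predicted gene, fell by 2.06 ± 0.33 (32 and 25 counts against 119 and 125). Their edgeR adjusted p-values ran from 0.01575 at Shroom3 to 0.0485 at Rbms3. With the window offsets, Rbms3 (-2.33, adjusted p = 0.0604) and Atf7ip2 (-2.33, adjusted p = 0.0516) were not called by edgeR. In each of these 5 regions both PB3-PAC-R libraries lay below both PB3-Parental libraries, as the rule for naming regions required.

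**Figure D2:**
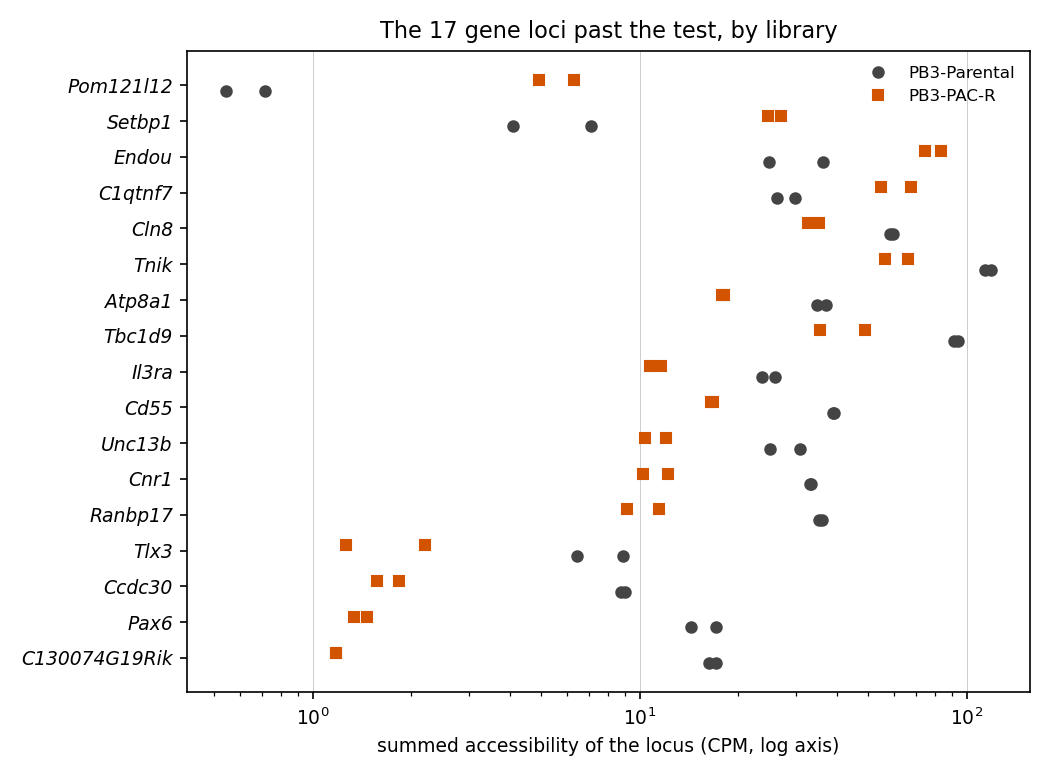
Summed accessibility in CPM (log axis) of the 17 called gene loci in each of the 2 PB3-Parental libraries (circles) and 2 PB3-PAC-R libraries (squares), ordered by log2 fold change. The groups do not overlap at any of these loci, from C130074G19Rik (1.18 against 16.3 and 17.1 CPM) to Pom121l12 (4.93 and 6.31 against 0.716 and 0.543). Picking loci by the test favours such a split.

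In the main fit called gains were fewer than called losses. Among regions this balance reversed with PB3-PAC-R replicate 1 or PB3-Parental replicate 1 left out, and held in the other fits. Endou, a uridylate-specific endoribonuclease, held 74.7 and 83.2 CPM in PB3-PAC-R and 36.2 and 24.9 in PB3-Parental, a rise of 1.37 ± 0.16 on the log2 scale (edgeR adjusted p = 0.01517). Both of its called regions lay inside the gene, 0.8 kb apart: one (chr15:97728195-97729496) held 664 and 773 counts against 322 and 197, and the other 191 and 173 against 59 and 29. The third region of the gene had a change of 0.32 ± 0.26 and was not called. Endou lies on chromosome 15, whose regions were shifted upward as a whole, and with that shift taken out as an offset the locus rose by 1.11 (edgeR adjusted p = 0.0399).

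Setbp1, a gene for a SET-binding nuclear protein, rose most among the called loci of several regions, 4.60-fold (SE of the log2 change 0.26, edgeR adjusted p = 0.0160). It stood at 27.1 and 24.7 CPM in PB3-PAC-R and 7.09 and 4.11 in PB3-Parental. All 4 of its regions were higher, by 1.88 to 2.47. The rise extended past the gene: of 16 regions in the megabase from Slc14a2 to the far side of Setbp1 on chromosome 18, 15 were above 0, and their median was 1.07. Another called region there lay 96.7 kb from Setbp1, with 90 and 99 counts against 23 and 13. The stretch ended at a region with 658 and 649 counts against 660 and 716, a change of -0.04. It was chosen after its values were seen, and carries no test as a stretch.

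C1qtnf7, a secreted protein of the C1q and TNF-related family, rose by 1.12 ± 0.15 (edgeR adjusted p = 0.0260), from 29.8 and 26.4 to 54.6 and 67.6 CPM. Its 8 regions, spread from 15.3 kb outside the gene into its body, had changes from 0.80 to 1.71, and none was called singly. Pom121l12, related to the nucleoporin Pom121, rose from 0.716 and 0.543 to 4.93 and 6.31 CPM, by 3.13 ± 0.44 (edgeR adjusted p = 0.0312), through a single region 34.3 kb from the gene with 67 and 80 counts against 10 and 7.

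The other named gains were single regions. One inside Ext1, a heparan sulfate polymerase (chr15:53138703-53139224), held 205 and 281 counts against 52 and 30 and rose by 2.63 ± 0.31 on the log2 scale (edgeR adjusted p = 0.008333). A region 16.1 kb from Hlx, a homeobox factor, rose from 8 and 14 to 54 and 40 counts, by 2.11 ± 0.36 (edgeR adjusted p = 0.0466). It lay 133 kb from the lost C130074G19Rik promoter. Of the 11 regions from one to the other, 5 were above 0, and these were the only 2 called. Regions inside Plce1, a phospholipase C of Ras signalling, Galc, the lysosomal galactosylceramidase, Cacna1c, an L-type calcium channel, and Arfgap3, an Arf GTPase-activating protein of the Golgi, rose by 1.92, 1.83, 1.77 and 1.58. With the window offsets, Cacna1c (1.53, adjusted p = 0.0577) and Arfgap3 (1.35, adjusted p = 0.0612) were not called by edgeR. At these 4 regions the PB3-PAC-R libraries held 98 to 305 counts and the PB3-Parental libraries 31 to 100. Within each region both PB3-PAC-R libraries lay above both PB3-Parental libraries, as the rule for naming regions required.

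Peak lists, deposited as 1 list per line, allow no comparison between replicates. Of 39414 PB3-PAC-R peaks, 88.01% (95% exact binomial interval 87.68 to 88.33, counting error only) overlapped a PB3-Parental peak, and 91.81% (91.53 to 92.09) of 37619 PB3-Parental peaks overlapped a PB3-PAC-R peak. The lists thus differed by 4726 peaks one way and 3081 the other, while 49 regions passed the test on counts. Regions with a peak in PB3-PAC-R but not PB3-Parental numbered 4631, with a median log2 change of 0.20, and 10 of them were called, all gained. Those with a peak in PB3-Parental but not PB3-PAC-R numbered 3031, with a median of -0.26, and 21 were called, all lost. Where both lines had a peak (34051 regions, median -0.01), 3 were called, at Zfp507, Vamp9 and Unc13b, all lost. Regions with a peak in neither line numbered 15702, with a median of -0.01, and 8 were called gained and 7 lost. Those 7 lay at or nearest to Shroom3, Rbms3, Atf7ip2, Bcl11b, Tlx3, Med12l and Spats2l, and each carried a PB3-ERI-R peak. By the definition of a consensus region, all 15702 should carry a peak in PB3-ERI-R or PB3-VIN-R. The share of them with a PB3-ERI-R peak was not counted. None of the 18 gained regions carried a PB3-Parental peak. Peaks were called from these reads, so the peak classes are not independent of the counts.

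The limit of 50 kb for a gene locus did not separate unlike regions. The 1114 regions 40 to 50 kb from a gene had a median change of -0.00 and none called, and the 917 regions 50 to 60 kb away a median of -0.01 and 2 called, both lost. The 8229 regions beyond 60 kb held 5 gained and 6 lost (0.134% called).

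Chromosomes 15 and 6 were shifted as a whole. On chromosome 15 the median log2 change over 2490 regions was 0.22, and 85.2% of them were above 0. Its median stood 0.29 and 0.14 above the PB3-Parental mean in the 2 PB3-PAC-R libraries, and the PB3-Parental libraries lay 0.02 either side. All 11 windows of 10 Mb along it were higher, from 0.18 to 0.31. On chromosome 6 the median over 2972 regions was 0.18, with 0.12 and 0.24 in the 2 libraries. Its last 4 windows, from 110 to 150 Mb, stood at 0.25 to 0.27. Chromosome 1 was lower, with a median of -0.09, but the PB3-Parental libraries themselves lay 0.08 apart from their mean there. The end of chromosome 14, from 110 to 130 Mb, stood at -0.26 and -0.17, and a part of the X chromosome from 30 to 60 Mb at 0.14 to 0.22. On chromosome 1 the median of PB3-VIN-R against PB3-Parental was -0.02. In the other stretches PB3-VIN-R was shifted the same way, except in the earlier windows of chromosome 6. It stood at -0.45 and -0.48 on chromosome 14, and at 0.61 to 0.69 on the X chromosome. On chromosome 15 its median was 0.11. Its last 4 windows of chromosome 6 stood at 0.28 to 0.34, but the others there were below 0, from -0.18 to -0.02. Such stretches share a change in reads across whole chromosomes, and DNA copy number and accessibility cannot be told apart in these counts. Chromosome 15 held 5 of the 18 gained regions and no lost one. With the window medians taken out as offsets, 42 regions and 18 loci were called.

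**Figure D3:**
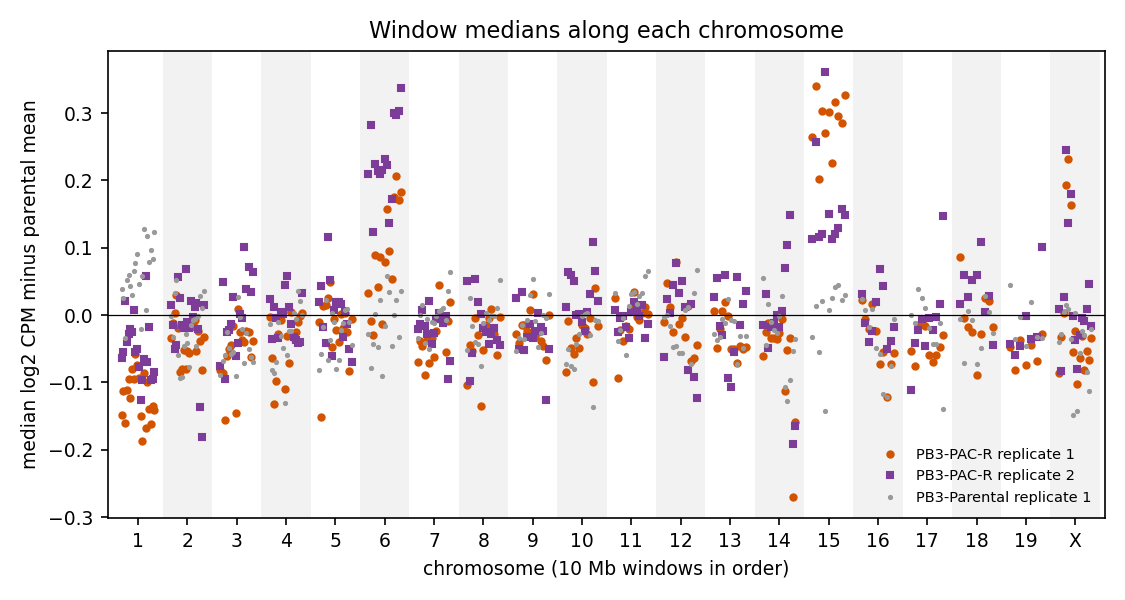
Median log2 CPM of the regions in each 10 Mb window minus the PB3-Parental mean, for the PB3-PAC-R replicates (circles and squares) and PB3-Parental replicate 1 (small grey points), by chromosome. Both PB3-PAC-R libraries lie above 0 all along chromosome 15, where the chromosome medians were 0.29 and 0.14, and most of chromosome 6.

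The tubulin genes, the target of the drug, showed no called change. In edgeR none of the 7 beta tubulin loci tested was called (none at an unadjusted p under 0.05, none by DESeq2), and their median was -0.05. Tubb5, the main beta tubulin of dividing cells, stood at 55.1 and 51.7 CPM in PB3-PAC-R and 54.3 and 50.7 in PB3-Parental, a log2 difference of 0.03 ± 0.11. Tubb3, the neuronal isotype often measured in taxane resistance, had -0.16 ± 0.17, with 24.9 and 20.3 CPM against 24.6 and 25.7. Tubb6 had 0.09 ± 0.16, Tubb4b -0.08 ± 0.10 and Tubb1, the platelet isotype, -0.25 ± 0.26. At none of these did the difference pass the test, which does not show that the lines were equal there.

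Alpha and gamma tubulins had a median of 0.02 over 11 loci, with none called by edgeR or DESeq2 and 3 at an unadjusted p under 0.05. Those 3 were Tuba3a (0.36 ± 0.13), Tuba3b (0.50 ± 0.21) and Tuba1c (0.27 ± 0.12). With the window medians as offsets the differences were 0.10 at Tuba3a, 0.22 at Tuba3b and -0.00 at Tuba1c. Among 23 tubulin folding and modifying enzymes none was called by edgeR (3 at an unadjusted p under 0.05), and 1, lower, with the replicate block. Agbl1, a tubulin deglutamylase, was lowest, with 37.9 and 30.8 CPM against 66.8 and 77.5, a difference of -1.07 ± 0.21 (edgeR adjusted p = 0.149, and 0.0165 with the block; DESeq2 adjusted p = 0.0006354). A region inside Agbl1 was called lost by itself, with 14 and 19 counts against 108 and 142. Ttll12 (0.30 ± 0.11) and Vash2, a tubulin detyrosinating enzyme (-0.31 ± 0.11), were not called, and stood at 0.07 and -0.19 with the window offsets.

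Microtubule-associated and plus-end proteins, which set the stability of the polymer, had a median of -0.04 over 37 loci. None was called by edgeR or DESeq2, 3 had an unadjusted p under 0.05, and 1, lower, was called with the replicate block. Camsap3, a minus-end binding protein of epithelial cells, stood at 5.89 and 5.68 CPM against 8.88 and 12.7 (-0.90 ± 0.22, edgeR adjusted p = 0.305, and 0.0490 with the block). Map9 had -0.52 ± 0.14 and Map7 -0.40 ± 0.13. Map4, the widespread member, had -0.02 ± 0.10 and Mapt, which encodes tau, -0.05 ± 0.14. Mitotic kinesins and spindle checkpoint genes had a median of 0.02 over 33 loci, with none called by edgeR or DESeq2 and none at an unadjusted p under 0.05. Their 3 loci of smallest p were Espl1 (0.30 ± 0.18), Mad2l1 (0.14 ± 0.10) and Sgo2a (-0.15 ± 0.10). With the window offsets Espl1, on chromosome 15, stood at 0.03 and Sgo2a at -0.10.

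The P-glycoprotein genes did not pass the test. Abcb1a, with 7 regions, stood at 157 and 146 CPM in PB3-PAC-R and 141 and 142 in PB3-Parental, a difference of 0.10 ± 0.09. Abcb1b, with 3 regions, had 63.2 and 56.1 CPM against 57.9 and 56.1 and a difference of 0.07 ± 0.10. At Abcb1b the groups overlapped, and at Abcb1a both PB3-PAC-R libraries lay above by a margin smaller than their own distance from each other. The 18 ABC transporter loci had a median of 0.03, with none called by edgeR or DESeq2 and 1, Abcc4 (-0.23 ± 0.10), at an unadjusted p under 0.05.

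Uptake carriers held the loci nearest to the threshold. Of 13 organic anion and cation carriers none was called by edgeR, 4 had an unadjusted p under 0.05, and DESeq2 called 2, both higher, as did edgeR with the replicate block. Slco1a5, an organic anion transporter, stood at 18.5 and 18.2 CPM in PB3-PAC-R against 8.81 and 8.06 (1.12 ± 0.19, edgeR adjusted p = 0.0731, and 0.00790 with the block; DESeq2 adjusted p = 0.0004441). Slco1a1, of the same family, had 8.17 and 3.47 CPM against 1.07 and 0.853 (2.58 ± 0.47, edgeR adjusted p = 0.102, and 0.00531 with the block; DESeq2 adjusted p = 0.0007049), and the single region behind it, 10.5 kb from the gene, was called with 111 and 44 counts against 15 and 11. Slco1a6 had 0.56 ± 0.16. All 12 regions of the stretch from Slco1a1 to Golt1b were above 0, with a median of 0.59. Many of them lay nearest to other genes, Pyroxd1, Recql and Golt1b, with changes from 0.20 to 0.75. The stretch lies in the raised end of chromosome 6, where window medians were 0.25 to 0.27, and with those taken out Slco1a1 had 2.32, Slco1a5 0.84 and Slco1a6 0.27, and the region behind Slco1a1 was not called (2.33, edgeR adjusted p = 0.0797). Slco1b2, the mouse carrier known for paclitaxel uptake in liver, had no region within 50 kb.

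Metabolism and cell death genes showed no call without the replicate block. The 14 taxane metabolism and detoxification loci had a median of -0.07 (none by edgeR or DESeq2, 1 at an unadjusted p under 0.05). Cyp3a13, a cytochrome P450, was that locus, with 13.3 and 10.3 CPM against 8.16 and 6.75 and a difference of 0.66 ± 0.26 (edgeR adjusted p = 0.745). The 29 Bcl2 family and apoptosis loci had a median of -0.00 (none by edgeR or DESeq2, 2 at an unadjusted p under 0.05). Bcl2 itself had -0.00 ± 0.12, Bcl2l14 0.45 ± 0.11 and Bid 0.27 ± 0.11, the last pair both on chromosome 6. With the window offsets Bcl2l14 stood at 0.19 and Bid at 0.02, and with the replicate block Bcl2l14 was the 1 locus of the list called (edgeR adjusted p = 0.0280).

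Epithelial and mesenchymal genes bear on the question in the study's title, which concerns a shift from mesenchymal to epithelial state. In edgeR none of the 30 epithelial adhesion and keratin loci was called (none by DESeq2, 5 at an unadjusted p under 0.05), and none of the 18 epithelial transcription and splicing factors (none by DESeq2, 4 at an unadjusted p under 0.05). With the replicate block 2 adhesion and keratin loci were called, both lower, and no factor. The list medians were -0.15 and -0.14, with 5 of 30 and 3 of 18 loci above 0, against a median of -0.02 and 43.8% above 0 over all loci. Such low shares were not limited to epithelial lists. The AP-1 list had 3 of 15 loci above 0, endothelial markers 2 of 10 and adipocyte markers 1 of 6, while the interferon list had 11 of 13. Cldn3, a tight junction claudin, had 48.7 and 38.2 CPM against 70.2 and 72.6 (-0.72 ± 0.19, edgeR adjusted p = 0.403, and 0.0167 with the block). Krt7, a keratin of simple epithelia, had -1.17 ± 0.48 (edgeR adjusted p = 0.800, and 0.0309 with the block). Cd24a, a surface glycoprotein of luminal cells, had 50.6 and 37.4 against 60.9 and 67.0 (-0.54 ± 0.14). Dsp, the desmosomal plakin, had -0.39 ± 0.14. Among factors Foxa1, a pioneer factor of luminal cells, had -0.48 ± 0.14 and Ehf, an epithelial Ets factor, 0.46 ± 0.18. Cdh1, which encodes E-cadherin, had -0.07 ± 0.16 and Epcam -0.16 ± 0.14.

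The mesenchymal side was nearer to the background. The median over 18 EMT (epithelial-mesenchymal transition) factors was -0.02 and over 37 mesenchymal and matrix loci -0.02, with none called in either by edgeR or DESeq2 and none and 3, respectively, at an unadjusted p under 0.05. Zeb1, a repressor of E-cadherin, stood at 133 and 116 CPM against 126 and 128 (-0.02 ± 0.12), and Vim, which encodes vimentin, at 193 and 164 against 208 and 179 (-0.12 ± 0.13). Col3a1, a fibrillar collagen, had 0.71 ± 0.23, Postn, which encodes the matrix protein periostin, -0.33 ± 0.14, and Itga5, the fibronectin receptor chain, 0.42 ± 0.16, or 0.14 with the window offsets. In the TGF-beta list (35 loci, median -0.02, none called by edgeR or DESeq2, 3 at an unadjusted p under 0.05) Smad9 had -0.99 ± 0.28, Bmp7 -0.65 ± 0.25 and Acvr1b 0.31 ± 0.11, or 0.04 with the window offsets. In bulk libraries, fewer cells with an open site and less opening per cell cannot be told apart.

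Interferon response loci had the highest median of the pathway lists, 0.14 over 13 loci, with 11 above 0. None was called by edgeR, 3 had an unadjusted p under 0.05, and DESeq2 called 2, both higher; with the replicate block edgeR called 2, Rsad2 and Usp18. Rsad2, which encodes the antiviral protein viperin, stood at 6.70 and 7.25 CPM in PB3-PAC-R against 2.01 and 0.853 (2.27 ± 0.45, edgeR adjusted p = 0.154, and 0.0220 with the block; DESeq2 adjusted p = 0.000319). Oas1a, a sensor of double-stranded RNA, had 2.06 and 4.89 against 0.573 and 0.698 (2.43 ± 0.75, edgeR adjusted p = 0.515, DESeq2 adjusted p = 0.0177). DESeq2 thus called Rsad2 and Oas1a, and not Usp18 (DESeq2 adjusted p = 0.207). Usp18, which removes the interferon-induced modifier Isg15, had 69.1 and 76.8 against 55.9 and 54.6 (0.40 ± 0.10; edgeR adjusted p = 0.0461 with the block), and with the window medians of chromosome 6 taken out its difference was 0.14. At all 3 loci both PB3-PAC-R libraries lay above both PB3-Parental libraries, but they were chosen as the loci of smallest p in the list. The share of all loci split this way was not counted.

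The other lists had no call by edgeR or DESeq2: SWI/SNF subunits (24 loci, 1 at an unadjusted p under 0.05), NF-kB and cytokines (23 loci, none), AP-1 (15 loci, 1) and housekeeping genes (15 loci, none). Their medians were -0.00, -0.01, -0.06 and 0.04. Batf3, an AP-1 partner, had -0.51 ± 0.22. Markers of macrophages, endothelium, adipocytes and fibroblasts had medians of 0.01, -0.07, -0.17 and 0.17 over 7, 10, 6 and 7 loci, with none called by edgeR or DESeq2 and none, 1, 1 and 1 at an unadjusted p under 0.05. The basal marker Krt5 had 6.77 and 5.36 CPM against 3.58 and 2.71, a difference of 0.94 ± 0.27 (edgeR adjusted p = 0.432), or 0.67 with the window medians of chromosome 15 taken out.

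**Figure D4:**
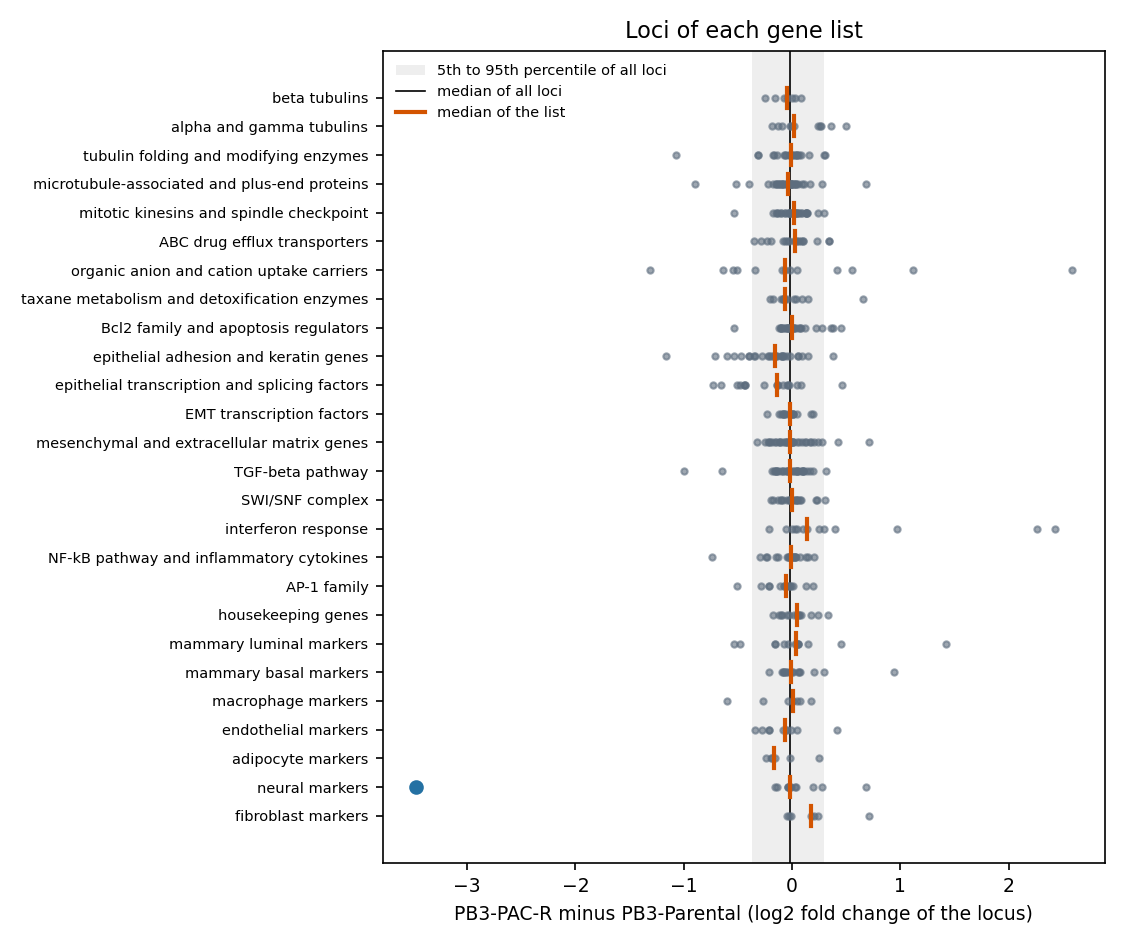
Log2 fold change (PB3-PAC-R minus PB3-Parental) of every tested locus in 26 gene lists, with the median of each list (orange bar), the median of all loci (-0.02, black line) and the 5th to 95th percentile of all loci (-0.37 to 0.29, grey band). The large blue point is Pax6 at -3.47, the only list locus that passed the test without the replicate block.

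Whether the called changes were particular to PB3-PAC-R was tested against the other resistant lines. In PB3-VIN-R, all 18 gained regions were above PB3-Parental and 17 were called higher, where 0.678% of all regions were called in either direction, with a median of 2.47 there and 2.16 in PB3-PAC-R. Of the 31 lost regions 30 were below PB3-Parental in PB3-VIN-R and 16 called, with a median of -1.25 there and -1.93 in PB3-PAC-R. The lines share the PB3-Parental libraries, so values on this scale are not independent. Of the 17 loci 12 were called in the same direction in PB3-VIN-R, against 0.644% of all loci. With the replicate block, 40 of the 49 regions and 16 of the 17 loci were called between PB3-VIN-R and PB3-Parental. The shares over all regions and loci were then 4.73% and 3.21%. In the direct contrast without the block, edgeR called 5 regions (0.00871%) and 5 loci (0.0336%) between PB3-PAC-R and PB3-VIN-R. None of the 49 regions or 17 loci was among them. With the replicate block, added to this contrast after seeing the data, 226 regions (0.394%) and 58 loci (0.389%) were called, among them 13 of the 49 regions and 2 of the 17 loci. The loci were C130074G19Rik (-1.85 ± 0.29, edgeR adjusted p = 0.0185) and Atp8a1 (-0.96 ± 0.14, edgeR adjusted p = 0.00948), both lower in PB3-PAC-R than in PB3-VIN-R. The 13 regions comprised 11 lost ones, all lower in PB3-PAC-R, among them those at Pax6 and Med12l, and 2 gained ones, at Ext1 (higher in PB3-PAC-R) and Galc (lower). The differences at the 49 regions ran from -1.85 at C130074G19Rik to 1.31 at Ext1. The exception in sign was Med12l, whose promoter held 84 and 51 counts in PB3-PAC-R, 186 and 189 in PB3-Parental and 292 and 343 in PB3-VIN-R (adjusted p of PB3-PAC-R against PB3-VIN-R 0.0681 in edgeR, and 0.00119 with the block). Atp8a1 was similar at locus level, with 30.9 and 39.0 CPM in PB3-VIN-R against 18.1 and 17.8 in PB3-PAC-R (edgeR adjusted p = 0.119).

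None of the 5 regions and 5 loci called between PB3-PAC-R and PB3-VIN-R was called between PB3-PAC-R and PB3-Parental without the block. A pair of regions 117 and 168 kb from Cdkn2b, which encodes a cell cycle inhibitor, held 32 and 29, and 41 and 27, counts in PB3-PAC-R, 48 and 22, and 45 and 25, in PB3-Parental, and 1 and 0, and 0 and 0, in PB3-VIN-R. Gabrb1, a GABA receptor subunit, stood at 7.29 and 7.09 CPM in PB3-PAC-R, 6.95 and 6.13 in PB3-Parental and 22.9 and 25.6 in PB3-VIN-R. Kcnmb2, Hs6st2, F8 and Zfp882 were the other loci called. Against PB3-Parental, Kcnmb2 had a difference of 0.07 ± 0.13 and Zfp882 one of -0.04 ± 0.20. F8, which encodes coagulation factor VIII, had 0.93 ± 0.29, and Hs6st2, a heparan sulfate sulfotransferase, -0.52 ± 0.21.

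**Figure D5:**
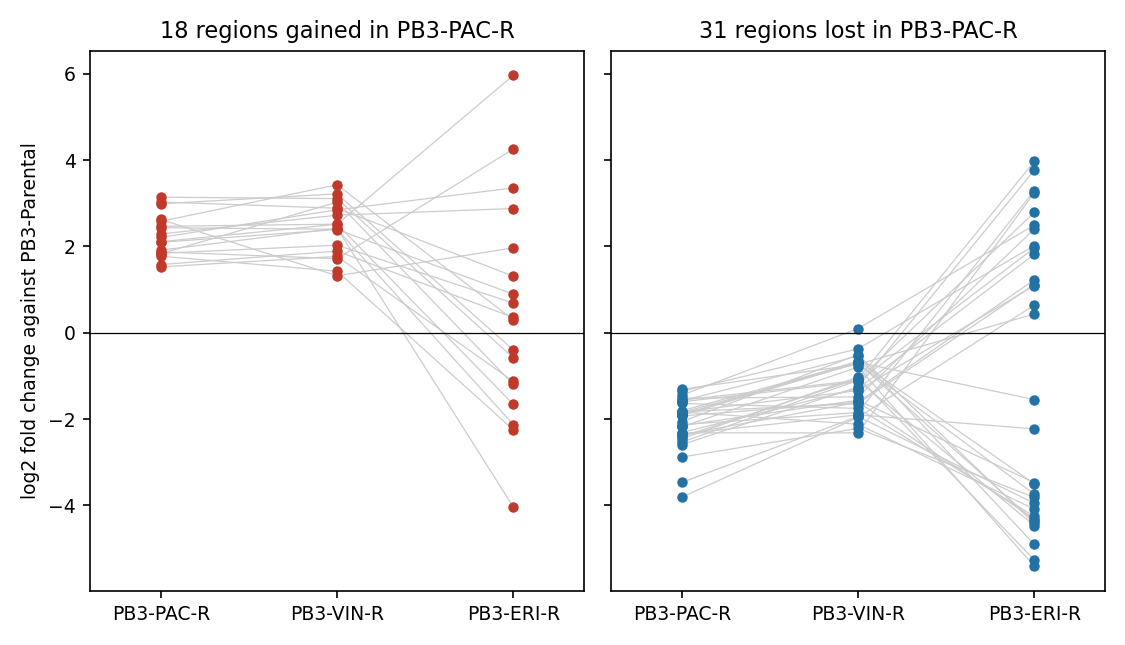
Log2 fold change against PB3-Parental of the 18 gained (left) and 31 lost regions (right) of PB3-PAC-R in each resistant line, 1 line per region. All gained and all but 1 of the lost regions have the same sign in PB3-VIN-R, while PB3-ERI-R spreads from strongly lower to strongly higher.

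Between PB3-ERI-R and PB3-PAC-R edgeR called 73% of regions and 60.3% of loci. Of the 49 regions 43 differed between PB3-PAC-R and PB3-ERI-R, 16 gained and 27 lost ones, against that background of 73%. Of the gained regions 7 were called higher and 6 lower than PB3-Parental in PB3-ERI-R, and of the lost ones 14 higher and 16 lower. Over all regions, 73% were called between PB3-ERI-R and PB3-Parental in either direction. Of the 17 loci 3 were called in the same direction and 8 in the opposite one, where 58.3% of all loci were called between PB3-ERI-R and PB3-Parental. Tlx3, lost in PB3-PAC-R, held 63.4 and 60.6 CPM in PB3-ERI-R against 6.45 and 8.92 in PB3-Parental. Pax6 stood at 0.894 and 0.759 CPM in PB3-ERI-R and Cnr1 at 0.894 and 1.63, both below PB3-Parental as in PB3-PAC-R. The region near Hlx held 508 and 371 counts in PB3-ERI-R against 54 and 40 in PB3-PAC-R, and C1qtnf7 214 and 183 CPM against 54.6 and 67.6.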

How the data were processed

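Open chromatin was profiled with ATAC-seq from 8 libraries of PB3 cells, and the labels assign 2 of them to each of 4 lines. Per the submitters' processing notes, the tools were Bowtie2 2.2.6, cutadapt 1.9.1, MACS2 2.1.1, bcl2fastq 2.20.0.422, featureCounts, Picard and deepTools, and the builds mm10 and GRCm38. Their settings were not stated in what was used here. The authors' deposited table gives a raw count for every consensus region and library, with no normalization. For each line a single deposited list of peaks carries a score of 830 to 1000 and a fold enrichment (a ratio) per summit; the score was used only as an alternative filter.

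Counts were tested with edgeR 4.0.16 in R 4.3.3 (filterByExpr, TMM factors, a quasi-likelihood fit of 8 libraries with a term per line) and adjusted by Benjamini-Hochberg over all regions or loci. The common biological coefficient of variation was 0.161 for regions and 0.112 for loci, with 4 residual degrees of freedom. Standard errors are the log2 fold change over the square root of its F statistic. Regions were placed at the nearest of 21883 protein-coding genes of RefSeq GRCm38.p6; that table has no strand, and promoter windows and sequences come from RefSeq's promoter table of the same build. CPM values use TMM library sizes, of all regions for regions and of placed regions for loci. Peak overlaps came from bedtools 2.31.1, with 95% exact binomial intervals from scipy 1.17.1. The fits were checked on simulated data. Window medians use regions of at least 1 in mean log2 CPM and windows of at least 20 regions; the copy number offsets subtract them.

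The 26 gene lists (558 genes), the rules and the comparisons were chosen with earlier results of these data known. Named are all called loci, up to 12 gained and 12 lost regions by size of change (mean log2 CPM at least 2, same sign in all 4 pairings of libraries, a gene within 50 kb, 1 region per gene), the 3 loci of smallest p in each list and 14 fixed genes, except 2 items that are not reported here; regions named outside this rule, and the stretches, were chosen after their values were seen. Deviations of same-numbered libraries from their line's mean correlated at 0.14 to 0.56 in the 6 pairs of lines, and at 0.50 between PB3-PAC-R and PB3-Parental. This evidence of pairing comes from the data, since the labels give the number alone, so blocked counts are printed beside those without the block. Alternatives covered scaling, filters, DESeq2 1.42.0, the libraries fitted, the replicate block, the gene distance and the peak overlap.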

Additional observations from a re-analysis of the deposited data

Results flagged for a closer look

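Of the 49 regions that differed between PB3-PAC-R and PB3-Parental, 43 also differed between PB3-PAC-R and PB3-ERI-R in edgeR's quasi-likelihood test (adjusted p under 0.05), so that the change against the shared PB3-Parental libraries was unlike in the 2 resistant lines. Over all regions tested, 73% differed between these lines. None of the 49 differed between PB3-PAC-R and PB3-VIN-R, where 0.00871% of regions did; with the replicate block 13 of them did, where 0.394% of regions did.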

How the results depend on the processing

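All 49 regions kept their sign in every alternative, while the number called moved. The count of 49 regions became 32 without a scaling factor, 2 without the PB3-ERI-R libraries, 2 with the 4 libraries of the comparison alone and 154 with DESeq2, which kept 48 of the 49. Leaving out 1 library gave 11 to 172 regions, lowest without PB3-PAC-R replicate 2 and highest without PB3-Parental replicate 1; a lone library was then assumed to vary like the other lines. The 17 loci became 2 with the 4 libraries alone, 8 without PB3-ERI-R, 102 with DESeq2 and 10 from regions within 1 kb of a gene end. Leaving out 1 library gave 4 to 16 loci. The promoter region of C130074G19Rik and the Pax6 region were the 2 called in all 14 alternatives listed at the outset. With the replicate number as a block, 636 regions and 160 loci were called, and 877 regions with the 4 libraries and the block, an alternative chosen after seeing the data. Among list loci, the block added calls at Slco1a1, Slco1a5, Rsad2, Usp18, Agbl1, Camsap3, Bcl2l14, Cldn3 and Krt7, and it ended none of the 49 and 17 calls. It raised the regions called between PB3-PAC-R and PB3-VIN-R from 5 to 226, and those between PB3-VIN-R and PB3-Parental from 389 to 2717. The peak overlap of 88.01% was 87.6% when at least 50% of the peak had to overlap and 87.45% for peaks with a score of 1000. Pparg was -0.76 within 1 kb of a gene end and Lep 0.21 within 10 kb, against 0.25 and -0.18. Of the other values for loci, 1594 kept their sign and side of the threshold and 79 lost the call. Where only the number of libraries fitted fell, fewer samples estimate the spread; the cause of the other moves was not tested.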
